A study of Rattus norvegicus with 32 samples.

Results

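The receptors for noradrenaline, dopamine, serotonin and acetylcholine were examined in CA3 hippocampal neurons of the rat after traumatic brain injury (TBI). Members were all probes of the CodeLink rat array whose platform gene symbol begins with Adra1, Adra2, Htr, Drd1 to Drd5, or a nicotinic subunit prefix (Chrna, Chrnb, Chrnd, Chrne, Chrng), or is one of Adrb1 to Adrb3 and Chrm1 to Chrm5. This rule took 64 of 33849 probes. Of these, 63 were each paired with a single gene, which gave 45 of the 12573 genes named on the array, and 1 probe was paired with both Adra1d and Adra2c and is not assigned to either.

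Adult male Sprague-Dawley rats received metyrapone (MT, 100 mg/kg) or carbenoxolone (CB, 30 mg/kg) subcutaneously before moderate fluid percussion TBI (TBI+MT and TBI+CB), saline before TBI (TBI), or sham injury (sham), and tissue was taken at 4 h and 24 h, which gave 8 groups. Metyrapone inhibits corticosterone synthesis, and carbenoxolone inhibits the enzyme that regenerates active glucocorticoid inside cells and also blocks gap junctions. RNA came from CA3 pyramidal neurons without Fluoro-Jade, a stain of degenerating neurons, cut out by laser capture, so the injured groups hold only neurons not stained as degenerating. Each group had 2 pooled samples, each on duplicate arrays a and b, so 16 pooled samples and 32 arrays were analysed, and p-values measure the spread between pools of several rats. The sources differ on timing and pools: the methods give 30 min between drug and injury, 600 neurons per pool and 3 rats per pool, while the labels give 90 min and the design text 3 to 6 rats. The 4 h sham samples are labelled untreated, while the methods describe saline.

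These receptors carry the modulatory input that reaches the hippocampus from the locus coeruleus, the raphe, the dopaminergic midbrain and the medial septum. Adrenergic, dopamine, muscarinic and most serotonin receptors signal through G proteins, and nicotinic receptors and serotonin receptor 3 are ion channels opened by the transmitter. In CA3, muscarinic and nicotinic input is known for shaping rhythmic firing, and adrenergic and serotonin input for changing excitability and plasticity. All levels below are raw intensity divided by the median of the array, set to at least 0.1 and averaged over the duplicate arrays on a log2 scale, so that 1 is the level of the median probe. Levels were compared between samples and never between probes.

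The samples were first checked against marker genes. The pyramidal markers Grik4, Slc17a7 and Camk2a were above background on all 32 arrays, and Neurod2 on 4. Markers of other cells were measured too: Gfap and Slc1a3 of astrocytes, Mag and Cnp of oligodendrocytes and Flt1 of endothelium were above background on all 32 arrays and Gad1 of interneurons on 31, while Mbp was above background on 3 and Slc32a1 on 4. Of the 6 microglia markers, Csf1r and Itgam were above background on 31 arrays, Cx3cr1 on 28, Aif1 and C1qa on 27 and P2ry12 on 1. Array medians ranged from 9.41 to 67.1 and the share of probes above background from 26.2% to 66%, with the lowest shares in 24 h TBI+MT pool 1 (26.2% and 29.1%) and 24 h TBI+CB pool 2 (30.1% and 30.4%). Slide numbers fall into 3 ranges, which were treated as possible batches: the first holds both 4 h sham pools and 4 h TBI pool 1, the third holds the 24 h drug pools, and the second holds the rest.

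Most of the receptor probes were near background. A probe was called above background on an array when the scanner software marked it neither low, irregular nor masked, and it was kept for testing when this held on all 4 arrays of at least 1 group. By this rule 22 of the 64 receptor probes were kept, from 20 genes and the shared Adra1d and Adra2c probe (34.4%, against 52.1% of all probes and 57.1% of the probes with 1 gene symbol). On all 32 arrays 9 receptor probes were above background (14.1%, against 18.2% of all probes), 16 were above background on 1 to 3 arrays, and 20 on none (31.2%, against 19.2%). The median receptor probe was above background on 2 arrays, against 13 for all probes. Members that passed only through a group where they were high had to differ between groups, and their counts are given below as descriptions. Chrm2 and Htr1f passed only through 4 h TBI, and Drd2 and Chrm3 only through 4 h sham, so their p in comparisons with those groups is no independent evidence.

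**Figure D1:**
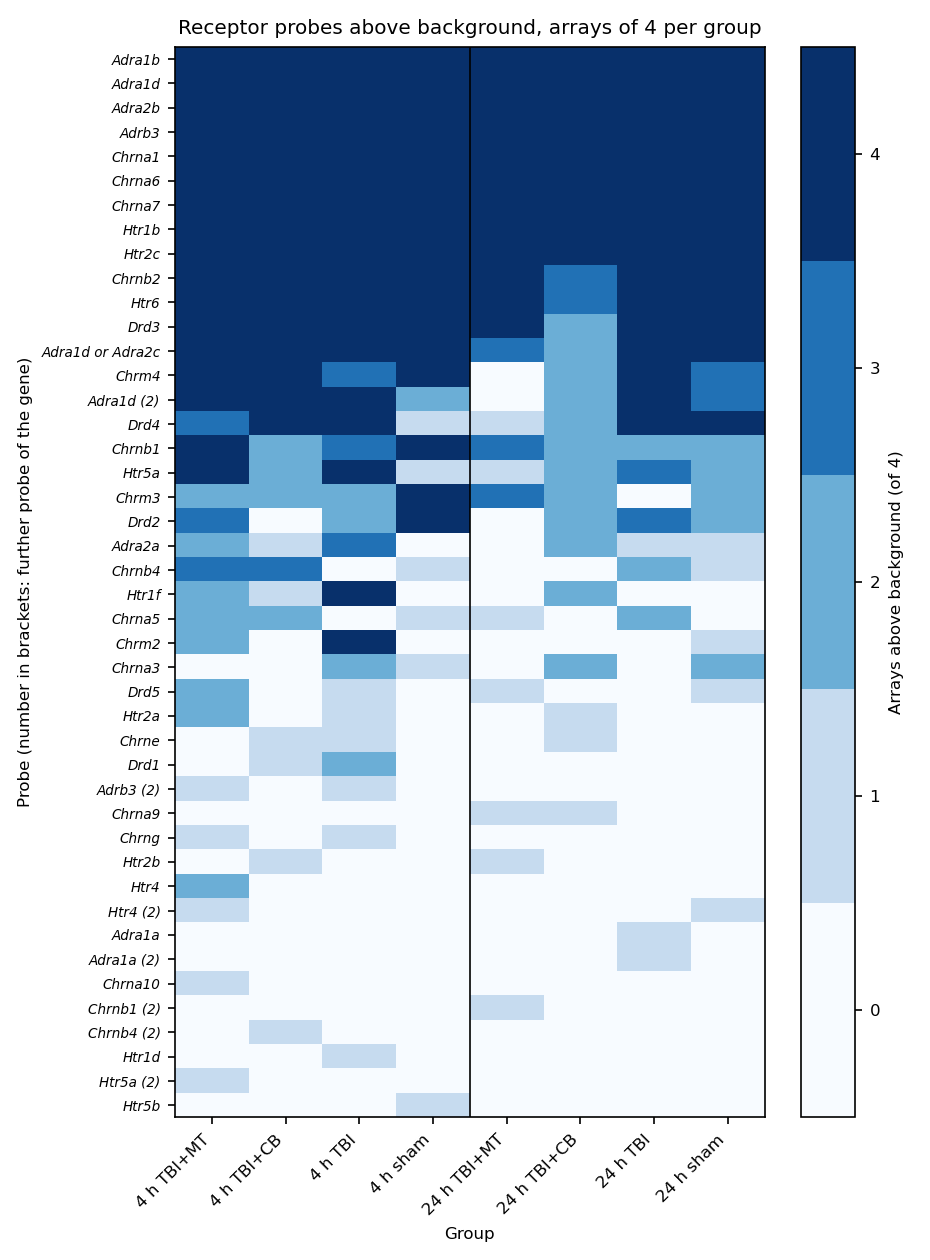
Arrays above background, of 4 per group, for the 44 receptor probes that were above background on at least 1 array (rows, with further probes of a gene numbered) in the 8 groups (columns). The first 9 rows are filled in every group, while Chrm2 and Htr1f reach 4 arrays only in 4 h TBI, and the 20 probes with no array above background are left out.

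The alpha-1 adrenergic receptors, which couple to phospholipase C, had 4 of 6 probes kept, with Adra1b and the first Adra1d probe (GE1156715) above background on all 32 arrays, the second Adra1d probe (GE21721) on 23 and the probe shared with Adra2c on 29. The 2 Adra1a probes were above background on 1 array each. Of the inhibitory alpha-2 receptors, Adra2b was above background on all 32 arrays, while the 2 Adra2a probes were so on 10 and 0. Among beta receptors, which raise cyclic AMP, Adrb1 was above background on no array. Adrb3, known best from adipose tissue, was above background on all 32 with 1 probe and on 2 with the other.

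Dopamine receptors had 1 probe per gene, and the filter divided these probes by class. The receptors of the D2 class, which lower cyclic AMP, were all kept: Drd3 was above background on 30 arrays, Drd4 on 23 and Drd2 on 16. The D1 class, which raises cyclic AMP, was not kept, with Drd1 above background on 3 arrays and Drd5 on 5. Among serotonin receptors, the inhibitory Htr1b was above background on all 32 arrays, Htr5a on 19 and 1 (its 2 probes) and Htr1f on 9. Htr1a, the inhibitory autoreceptor of raphe neurons that is also known from hippocampal pyramidal cells, was above background on none. Htr2c, which couples to phospholipase C and is also known from the choroid plexus, was above background on all 32 with 1 probe and on none with the other. Htr6, which raises cyclic AMP, was above background on 31 and 0 arrays, Htr7 on none, and neither Htr3b probe, for a subunit of the serotonin channel, on any.

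Among muscarinic receptors, the inhibitory Chrm4 was above background on 24 arrays and Chrm2 on 7, and Chrm3, which couples to phospholipase C, on 17. Neither of the 2 probes of Chrm1, the muscarinic receptor known as the most abundant in the forebrain, was above background on any array, with levels between 0.130 and 0.815 in the 16 pools, and Chrm5 was above background on none. Among neuronal nicotinic subunits, Chrna7, which forms the homomeric channel known from hippocampal neurons, and Chrna6, known mainly from catecholamine neurons, were above background on all 32 arrays and Chrnb2 on 31. Chrna4, the usual partner of Chrnb2 in brain, was above background on none, Chrna3 on 7, Chrna5 on 8 and 0 and Chrnb4 on 10, 1 and 0, and the single Chrnb3 probe was masked on every array. Of the muscle subunits, Chrna1 was above background on all 32 arrays and Chrnb1 on 22 and 1, while the 2 Chrnd probes were above background on none. A probe near background bounds only its own signal, and where probes of a gene disagreed the array does not show which one measured the transcript.

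Promoter sequences are shown for 4 receptors on which the results turn: Adra1d and Htr2c, whose levels followed each other most closely over the pools, Chrna7, which was above background throughout and followed neither, and Drd2, which had the smallest p over the 8 groups but was kept only through 4 h sham. They are the 250 bases before the start site used in the RefSeq promoter table on GRCr8 (for Chrna7 this site lies inside the listed gene span, so the last bases shown overlap the gene), 5′ to 3′ on the gene's strand, and capitals mark the GC box (GGGCGG), the cyclic AMP response half-site (TGACG) or the TATA box (TATAAA), searched on both strands.
Adra1d (chr3:139262332-139262581, minus strand): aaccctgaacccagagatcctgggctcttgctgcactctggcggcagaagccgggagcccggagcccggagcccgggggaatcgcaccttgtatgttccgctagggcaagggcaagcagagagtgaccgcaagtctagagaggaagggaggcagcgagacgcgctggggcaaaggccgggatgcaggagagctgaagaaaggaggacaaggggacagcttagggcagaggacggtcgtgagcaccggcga
Htr2c (chrX:115452940-115453189, plus strand): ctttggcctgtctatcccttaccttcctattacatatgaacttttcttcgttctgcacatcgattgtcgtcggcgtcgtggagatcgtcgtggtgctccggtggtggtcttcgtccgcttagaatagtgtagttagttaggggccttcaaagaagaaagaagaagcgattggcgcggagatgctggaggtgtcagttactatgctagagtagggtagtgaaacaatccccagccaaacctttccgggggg
Chrna7 (chr1:126249130-126249379, minus strand): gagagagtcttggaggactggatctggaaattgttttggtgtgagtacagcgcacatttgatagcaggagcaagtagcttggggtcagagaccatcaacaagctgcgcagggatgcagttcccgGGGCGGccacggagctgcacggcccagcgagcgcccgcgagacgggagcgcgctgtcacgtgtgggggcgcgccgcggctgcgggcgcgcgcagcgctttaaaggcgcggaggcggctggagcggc
Drd2 (chr8:58605153-58605402, plus strand): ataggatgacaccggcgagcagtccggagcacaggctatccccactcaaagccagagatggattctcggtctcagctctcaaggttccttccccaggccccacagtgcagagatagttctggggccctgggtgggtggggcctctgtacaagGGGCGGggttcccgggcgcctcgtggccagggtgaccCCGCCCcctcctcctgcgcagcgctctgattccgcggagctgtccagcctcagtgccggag
Of the 45 member genes, 37 matched a RefSeq promoter, and 17 of these held a GC box, against 32.4% of 27457 promoters of this length. The half-site was in 7 of the 37, against 19% of all promoters, and the TATA box in 1, against 13.1%. A match describes the letters and is not a measured binding site.

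No receptor probe passed an adjusted p of 0.05 in any of the 6 comparisons, in the 3 differences between 24 h and 4 h or in the test of any difference over the 8 groups (limma with Benjamini-Hochberg adjustment). The same held for all probes, with 0% called in every one of these tests. The results below are therefore levels and fitted fold changes, with the count at an unadjusted p under 0.05 beside the share of all probes. That share was 5.54% for the test over the 8 groups, in which 2 of the 22 receptor probes, Drd2 (limma, adjusted p = 0.808) and the second Adra1d probe, were below that. Drd2 was kept only through 4 h sham, which is among these groups, so its p is no independent evidence here either.

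**Figure D2:**
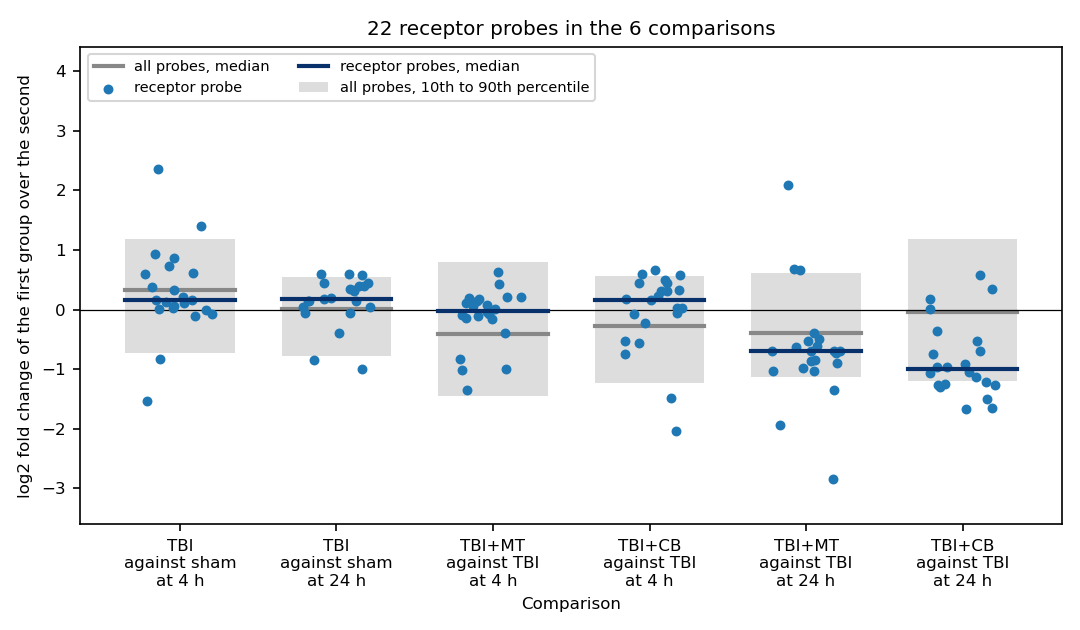
Log2 fold change (vertical axis) of the 22 kept receptor probes in the 6 comparisons (horizontal axis), with the receptor median as a dark line, the median of all probes as a grey line and their 10th to 90th percentile as a grey bar. The receptor medians lie near 0 in the first 4 comparisons and at -0.70 and -1.0 in the last 2, TBI+MT and TBI+CB against TBI at 24 h.

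Injury at 4 h left most receptor levels within the spread of the pools. Of the 22 receptor probes, TBI exceeded sham by over 2-fold in 2 (15.9% of all probes) and was over 2-fold lower in 1 (7.35%), and 2 had an unadjusted p under 0.05 (3.34%). The receptor median was 0.16 on the log2 scale, against 0.33 for all probes. After quantile normalization these medians were -0.10 and 0.03, and the receptor probes divided into 8 higher and 14 lower in place of 17 and 5 (69.1% of all probes were higher). The receptor median was -0.15 without TBI pool 2 and -0.08 without sham pool 1, so no common direction is given.

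Chrm2, the inhibitory muscarinic receptor, was kept only through the 4 h TBI arrays, and its difference is given as a description. Its level was 0.977 and 1.03 in the 4 h TBI pools, against 0.143 and 0.270 in the 4 h sham pools. Both TBI pools lay above both sham pools, all 4 TBI arrays were above background and none of the sham arrays was, so the difference is given as at least 1.38-fold higher (fitted log2 fold change 2.35 ± 0.602 SE). Htr5a, an inhibitory serotonin receptor, had levels of 0.725 and 2.45 in TBI pools and 0.412 and 0.613 in sham pools. The TBI pools were higher without overlap but differed from each other by more than the groups did (log2 fold change 1.41 ± 0.586 SE, adjusted p = 0.936), and the fold change was 0.53 without TBI pool 2. Drd2, an inhibitory dopamine receptor, had levels of 1.22 and 0.354 in TBI pools and 1.47 and 2.48 in sham pools (log2 fold change -1.54, adjusted p = 0.936), and the fold change was -0.64 without TBI pool 2 and -2.43 without TBI pool 1.

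The 4 h TBI pools differed from each other in other transcripts. TBI pool 1 lies in the first slide range with the sham pools, and TBI pool 2 in the second with the 4 h drug pools. A difference between these TBI pools therefore cannot be told apart from one between slide ranges. The summed level of the choroid plexus and ependyma markers was 6.26 in TBI pool 1 and 152 in TBI pool 2, through Ttr, and 4.87 and 7.27 in the sham pools. Astrocyte markers summed to 225 and 505 in the TBI pools and 143 and 255 in the sham pools. Htr2c, which choroid plexus also expresses, had 18.4 and 22.7 in the TBI pools and 18.0 and 23.1 in the sham pools. Folr1, another choroid plexus marker, had means of 6.01 in TBI and 5.27 in sham. Adrb3 had 8.72 and 32.3 in the TBI pools, against 8.26 and 20.0 in the sham pools, and Chrna7 had 84.3 and 191, against 80.7 and 84.9. In both, TBI pool 2 stood above the other 3 pools. In captured tissue fewer cells of a type and less RNA per cell cannot be told apart, and the part of the other cells in this was not tested. Without TBI pool 1, 7 receptor probes were over 2-fold higher (28.1% of all probes), and without TBI pool 2, 0 were over 2-fold lower (3.97%).

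At 24 h the TBI and sham groups were closer. The receptor median was 0.18, against 0.01 for all probes, and without sham pool 1 it was -0.000705, with 11 receptor probes higher and 11 lower. Without sham pool 2 it was 0.48. No receptor probe was over 2-fold higher (4.09% of all probes) or lower (6.71%), and 0 had an unadjusted p under 0.05 (1.84% of all probes). The 3 receptors with the smallest p were Chrm2, Adra1d and Htr5a. Chrm2 had 0.265 and 0.460 in TBI pools and 0.645 and 0.618 in sham pools, opposite in order to 4 h, with 0 and 1 arrays above background (log2 fold change -0.85, adjusted p = 1). The second Adra1d probe had 4.26 and 3.90 in TBI pools, against 2.40 and 3.10 in sham pools. Htr5a had 1.44 and 1.61 in TBI pools, against 1.16 and 0.872 in sham pools. Both were higher without overlap, by 0.58 and 0.60 on the log2 scale (adjusted p = 1 for each). Without TBI pool 2, 2 receptor probes were over 2-fold lower (9.72% of all probes), and without sham pool 2, 1 was (20.4%). Without TBI pool 1 or sham pool 1, 1 was over 2-fold higher (5.64% and 9.09%).

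Drug treatment at 4 h was compared with TBI alone. For TBI+MT, 0 receptor probes were over 2-fold higher (8.21% of all probes) and 2 over 2-fold lower (25.1%), and 0 had an unadjusted p under 0.05 (4.73%). The receptor median was -0.02, against -0.40 for all probes. After quantile normalization they were 0.33 and -0.01, with 17 receptor probes higher and 5 lower in place of 11 and 11 (29.6% of all probes were higher). Relative to all probes the receptor median was thus 0.38 or 0.34 above. For TBI+CB, 0 were over 2-fold higher (4.55%) and 2 over 2-fold lower (15.9%), 1 had an unadjusted p under 0.05 (3.44%), and the receptor median was 0.16, against -0.28 for all probes. Without TBI pool 1 the receptor median was -0.27 with metyrapone and -0.11 with carbenoxolone, and without TBI+CB pool 1 it was -0.05 with carbenoxolone. Without TBI+MT pool 1 it was -0.12 with metyrapone, without TBI+MT pool 2 0.15 and without TBI pool 2 0.20. Endothelial and pericyte markers summed to 22.9 and 22.2 in TBI+MT pools, 34.8 and 28.1 in TBI+CB pools and 43.6 and 47.7 in TBI pools. With each drug 4 of these 6 markers were lower and 2 higher. In the same order of groups, astrocyte markers summed to 100 and 179, 220 and 207.5, and 225 and 505. Oligodendrocyte sums were 78.4 and 82.5, 131 and 93.0, and 121.5 and 151. Microglia sums were 22.7 and 24.2, 20.6 and 30.1, and 29.3 and 39.1. Interneuron sums were 80.1 and 83.95, 120 and 93.0, and 96.2 and 137. With each drug 5 of the 6 kept interneuron markers were lower and 1 higher. Their median was -1.26 with metyrapone and -0.85 with carbenoxolone, against -0.40 and -0.28 for all probes. Choroid plexus and ependyma sums were 14.7 and 9.14, 13.2 and 10.8, and 6.26 and 152, which overlap. The part of these cells was not tested.

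Adrb3 had the smallest p with metyrapone at 4 h. Its level was 5.93 and 7.36 in TBI+MT pools and 8.72 and 32.3 in TBI pools. The groups did not overlap, but the lower TBI pool was close to the TBI+MT pools (log2 fold change -1.35 ± 0.636 SE, adjusted p = 0.736), and the value was -0.40 without TBI pool 2. Htr1f, an inhibitory serotonin receptor, had 0.227 and 0.890 in TBI+MT pools and 0.556 and 1.44 in TBI pools, which overlap. Chrm2 had 0.544 and 0.588 in TBI+MT pools, against 0.977 and 1.03 in TBI pools, a log2 fold change of -0.82 without overlap.

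Drd2 had the smallest p with carbenoxolone at 4 h. Its level was 0.234 and 0.109 in TBI+CB pools, with no array above background, and 1.22 and 0.354 in TBI pools, with 2 of 4. The groups did not overlap (fitted log2 fold change -2.04, adjusted p = 0.957), and no fold is given, since the TBI mean was below the average of the lowest signals called above background on the TBI+CB arrays. Chrm3 had 0.458 and 1.52 in TBI+CB pools and 4.81 and 1.12 in TBI pools, which overlap. Chrm2 had 0.954 and 0.374 in TBI+CB pools, against 0.977 and 1.03 in TBI pools. Both drug groups were set against the same TBI pools, so their values are not independent. Without TBI+MT pool 2, 4 receptor probes were over 2-fold lower in TBI+MT (39.7% of all probes). Without TBI+MT pool 1 or TBI pool 2, 1 was (7.5% and 17.3%). Without TBI pool 1, 3 were over 2-fold lower and 1 higher in TBI+MT (34.2% and 12.7%). In TBI+CB 4 were then lower and 1 higher (25.4% and 9.59%), and 2 were higher without TBI pool 2 (4.72%).

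**Figure D3:**
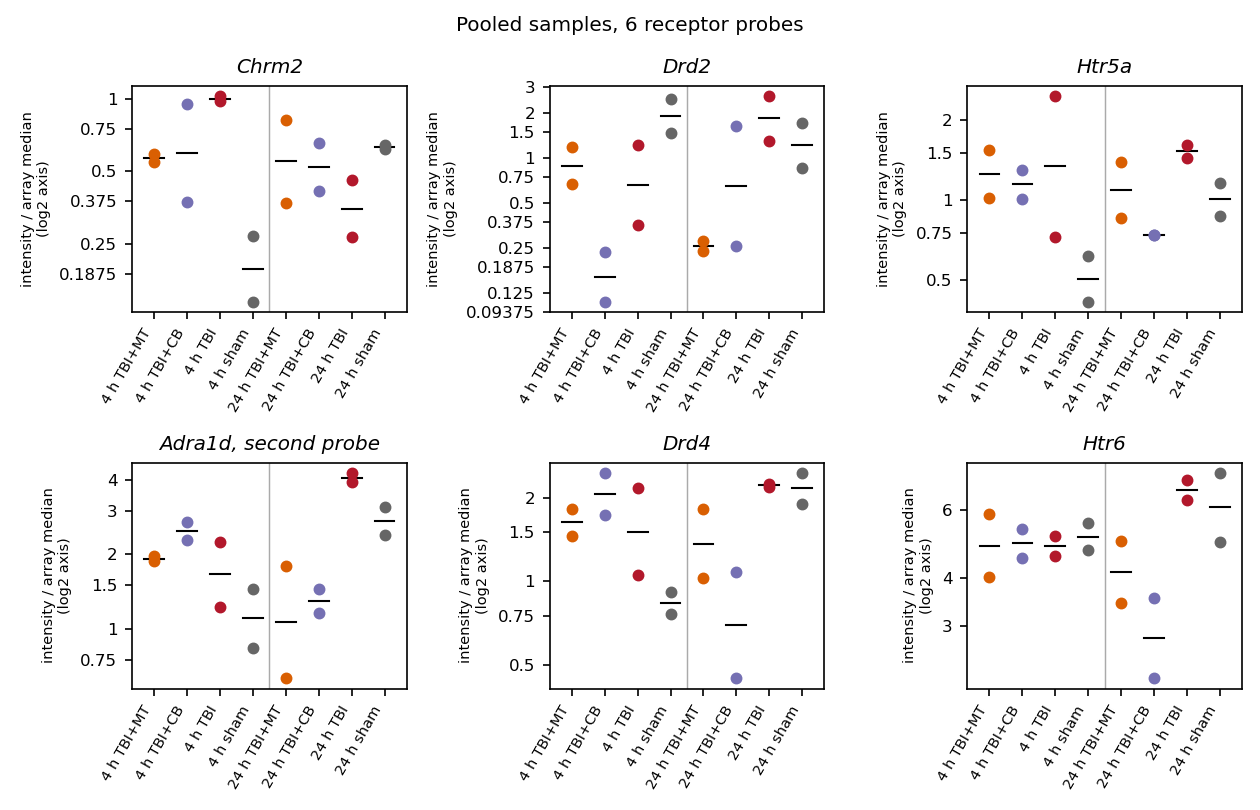
Level (raw intensity divided by the array median, log2 axis) of 6 receptor probes in each pooled sample (points, 2 per group) of the 8 groups (horizontal axis), with the geometric mean of the pools as a bar. Chrm2 is lowest in 4 h sham, and the second Adra1d probe, Drd4 and Htr6 are lower in both 24 h drug groups than in 24 h TBI.

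At 24 h the kept receptor probes were mostly lower with drug treatment than with TBI alone. Both drug groups were set against the same 2 TBI pools, so the drug comparisons are not independent. Of the 16 pools, a 24 h TBI pool was highest for Adra1b, the first Adra1d probe, Adra2b, Chrna6, Htr1b and Htr2c. For Adrb3 and Chrna7 it was 4 h TBI pool 2, and for Chrna1 24 h sham pool 2. With metyrapone, 3 of 22 were higher and 19 lower (26% of all probes were higher), 5 were lower by over 2-fold (13.8% of all probes) and 1 was over 2-fold higher (5.5%). Both TBI+MT pools lay below both TBI pools for 15 receptor probes (28.6% of all probes), and 4 had an unadjusted p under 0.05 (5.51%). Htr1f, among these 15 and among the 5 lower by over 2-fold, was above background on 0 arrays in both groups. With carbenoxolone, 4 of 22 were higher and 18 lower (48.7% of all probes were higher), 11 were lower by over 2-fold (15.2% of all probes), and 0 were over 2-fold higher (14.3%). Both TBI+CB pools lay below both TBI pools for 17 receptor probes (27.4% of all probes), and 7 had an unadjusted p under 0.05 (8.22%). The receptor median was -0.70 with metyrapone, against -0.39 for all probes, and -1.0 with carbenoxolone, against -0.04 for all probes. The metyrapone median depended on the pools: without TBI+MT pool 2 it was -0.35, against -0.74 for all probes, and without TBI+MT pool 1 it was -1.09, against 0.06. Scaling by the probes above background on all arrays gave -0.32, against -0.02, with 2 receptor probes over 2-fold lower (6.15% of all probes) and 3 higher (9.84%). The carbenoxolone median was -0.75 without TBI+CB pool 2, against 0.60 for all probes, and -1.11 without TBI+CB pool 1, against -0.56. With no filter the metyrapone direction was absent: 32 of 63 receptor probes were higher and 31 lower, with a median of 0.02, against -0.17 for all probes. Of these, 10 were over 2-fold higher (12% of all probes) and 5 lower (11.2%). With carbenoxolone and no filter 25 were higher and 38 lower, with a median of -0.49, against -0.11.

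The second Adra1d probe had the smallest p with metyrapone. Its level was 1.80 and 0.631 in TBI+MT pools, with no array above background, against 4.26 and 3.90 in TBI pools, with all 4, which is at least 3.09-fold lower (log2 fold change -1.94 ± 0.563 SE, adjusted p = 0.746). The first Adra1d probe had 34.6 and 16.2 in TBI+MT pools and 52.5 and 44.9 in TBI pools (log2 fold change -1.04). Both probes were lower without overlap. Drd2 had 0.278 and 0.238 in TBI+MT pools, against 1.31 and 2.58 in TBI pools, at least 1.4-fold lower (fitted log2 fold change -2.84, adjusted p = 0.746). Chrm4, the inhibitory muscarinic receptor, had 0.982 and 0.532 in TBI+MT pools, against 1.78 and 1.89 in TBI pools, at least 1.39-fold lower (adjusted p = 0.889). Chrm3, which couples to phospholipase C, went the other way, with 1.86 and 2.21 in TBI+MT pools, against 0.384 and 0.591 in TBI pools, at least 1.75-fold higher (adjusted p = 0.909). The remaining probe under 0.05 was Adra2b, with 7.04 and 5.01 in TBI+MT pools and 10.6 and 13.0 in TBI pools (adjusted p = 0.889).

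With carbenoxolone the smallest p belonged to Drd4, which lowers cyclic AMP. Its level was 1.08 and 0.448 in TBI+CB pools, against 2.19 and 2.25 in TBI pools (log2 fold change -1.67 ± 0.562 SE, adjusted p = 0.592). The second Adra1d probe had 1.44 and 1.16 in TBI+CB pools, against 4.26 and 3.90 in TBI pools (log2 fold change -1.66). The first had 24.4 and 16.7, against 52.5 and 44.9 (log2 fold change -1.27). In each the TBI+CB pools lay well below the TBI pools.

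Htr6, which raises cyclic AMP, had 3.56 and 2.20 in TBI+CB pools, against 6.36 and 7.15 in TBI pools (log2 fold change -1.27). Adra1b had 3.92 and 4.68, against 11.7 and 9.57 in TBI pools (log2 fold change -1.30). Chrnb2 had 2.12 and 1.87, against 4.88 and 4.59 in TBI pools (log2 fold change -1.25). Htr1b had 4.33 and 3.74, against 8.88 and 9.74 in TBI pools (log2 fold change -1.21). The adjusted p was 0.592 for each of these 7 probes. Chrna7 did not share the order of these probes, with 99.0 and 38.5 in TBI+CB pools and 44.5 and 67.2 in TBI pools, which overlap.

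The 24 h drug pools all lie in the third slide range and the TBI pools in the second, so drug and slide range cannot be told apart here. Array medians were 10.1 and 18.3 in the TBI+MT pools, 42.2 and 9.53 in the TBI+CB pools, and 14.4 and 18.3 in the TBI pools. Pyramidal markers summed to 144 and 224 in TBI+MT pools, 250 and 87.3 in TBI+CB pools and 172 and 262 in TBI pools. In the same order of groups, means were 147, 135 and 175 for Grik4 and 18.5, 12.3 and 28.3 for Slc17a7. Camk2a had means of 16.1, 14.6 and 10.5. Of the 4 kept pyramidal markers, 3 were lower and 1 higher with metyrapone, and 2 were lower and 2 higher with carbenoxolone. Choroid plexus and ependyma markers summed to 9.81 and 5.83 in TBI+MT pools, 8.18 and 13.0 in TBI+CB pools and 19.0 and 19.9 in TBI pools. These sums were lower in both drug groups without overlap, and followed Folr1, with means of 5.70 in TBI+MT, 5.57 in TBI+CB and 17.2 in TBI. Ttr went the other way, with means of 0.808, 3.97 and 0.393. Htr2c, which choroid plexus also expresses, had means of 19.6, 16.7 and 31.2 in the same order of groups. Of the 2 kept markers of this list, 1 was higher and 1 lower in each drug group. All 6 endothelial and pericyte markers were lower in both drug groups, with medians of -0.82 for TBI+MT and -0.74 for TBI+CB and sums of 42.5 and 33.9 in TBI+MT pools, 57.7 and 30.3 in TBI+CB pools and 57.2 and 72.2 in TBI pools. Astrocyte markers summed to 96.9 and 170 in TBI+MT pools, 239 and 111 in TBI+CB pools and 118 and 164 in TBI pools. The part of these cells in the receptor levels was not tested. Without TBI+MT pool 1, 13 receptor probes were over 2-fold lower in TBI+MT (17.8% of all probes). Without TBI+MT pool 2, 3 were over 2-fold lower (39.3%) and 3 higher (4.52%), and without TBI pool 2, 3 were higher (7.58%). Without the dim TBI+CB pool 2, 8 were over 2-fold lower in TBI+CB (13.5%) and 1 was higher (38.2%). Relative to all probes the receptor median with carbenoxolone was -0.96, and -0.98 after quantile normalization. With metyrapone it was -0.31 and -0.19.

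Most receptor probes above background on all 32 arrays moved together from pool to pool. Among 8 of the 9 (Adra1b, Adra1d, Adra2b, Adrb3, Chrna1, Chrna6, Htr1b and Htr2c) the Pearson correlation of log2 levels over the 16 pools was 0.47 to 0.95 for the 28 pairs, with a median of 0.76, and was highest between Adra1d and Htr2c. With Chrna7 included, the 9 probes had a median of 0.69 and a lowest value of -0.41. The median over all pairs of the 6173 probes above background on all arrays was 0.28. Within the 9 pools of the second slide range the 28 pairs had 0.42 to 0.95, with a median of 0.72, against 0.17 for all pairs. Chrna7 stood apart, with -0.41 to 0.43 against the other 8. These values describe pools that share treatments, array medians and slide ranges, and carry no test. Other gene families were not correlated in this way, so the shared movement is not shown to be particular to receptors. Some markers of other cells were also lower with both drugs at 24 h. In TBI+MT, TBI+CB and TBI, means were 40.8, 25.3 and 55.3 for Mag and 8.17, 5.97 and 11.3 for S100b of astrocytes. The astrocyte markers Aqp4 and Gja1 went the other way.

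The other probes of this kind had narrower ranges than Chrna7, which ran from 19.5 to 191. Adra2b ran from 5.01 to 13.0, Chrna1 from 3.45 to 8.60, Chrna6 from 3.00 to 8.15 and Adrb3 from 5.93 to 32.3. Of the probes above background on most arrays, Drd3 ran from 1.93 in 24 h TBI+CB pool 2 to 5.37 in 4 h TBI+MT pool 1.

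Over the 16 pools Adra1b ranged from 3.92 in 24 h TBI+CB pool 1 to 11.7 in 24 h TBI pool 1, the first Adra1d probe from 16.2 in 24 h TBI+MT pool 2 to 52.5 in 24 h TBI pool 1, and Htr2c from 12.3 in 24 h TBI+CB pool 2 to 32.5 in 24 h TBI pool 2. Within each group the pools were ordered by their array median. Adra1b and Chrna1 were higher in the pool with the lower array median in 8 of 8 groups, and the first Adra1d probe, Chrna6 and Chrnb2 in 7 of 8. Of the 22 receptor probes, 6 were higher in the dimmer pool in 6 groups, 5 in 7 and 2 in 8, against 8.44%, 7.4% and 4.29% of all probes kept. Chrm3 was higher in the dimmer pool in 0 of 8 groups and Chrna7 in 2, and the part of array brightness in these levels was not tested.

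**Figure D4:**
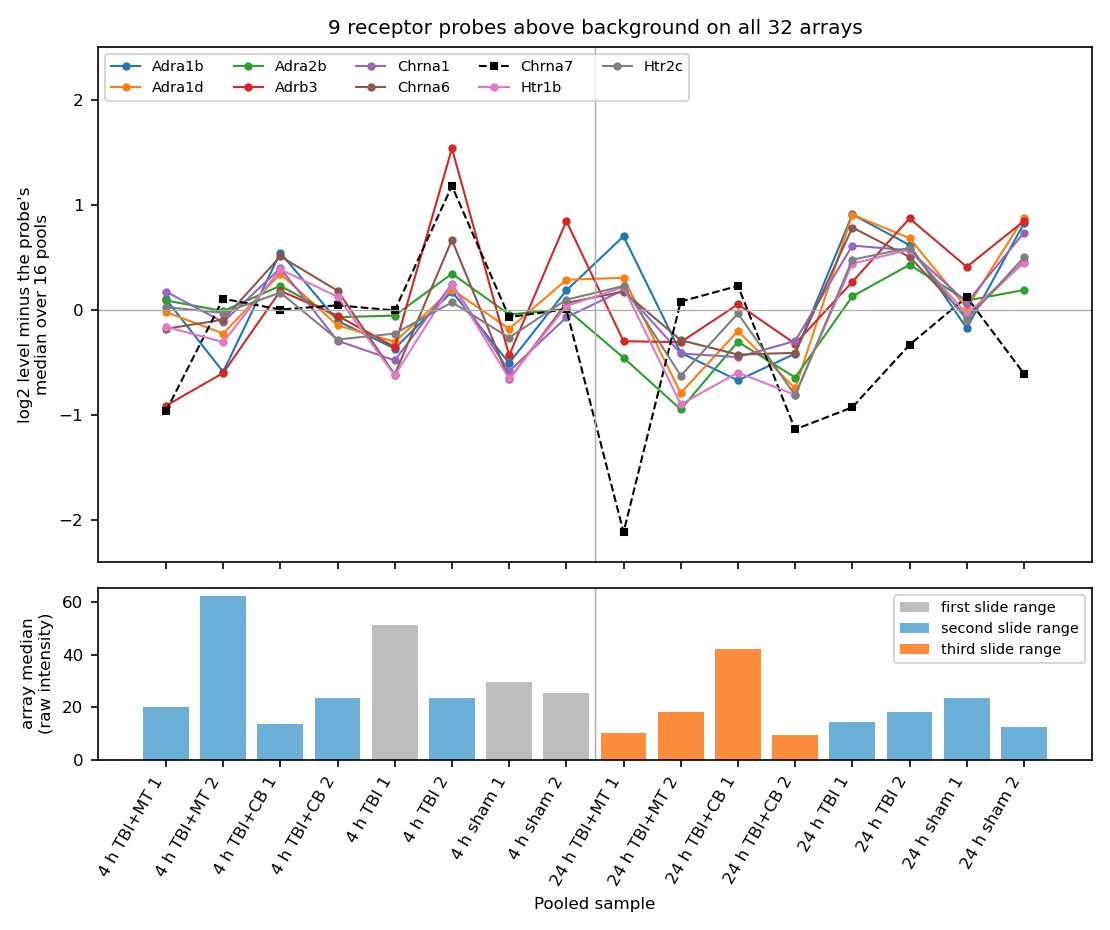
Upper panel: log2 level minus the probe's own median over the 16 pools (vertical axis) for the 9 receptor probes above background on all 32 arrays. Lower panel: array median of each pool as raw intensity, coloured by slide range. The solid lines run together, high in 24 h TBI and 24 h sham pool 2 and low in most 24 h drug pools, while Chrna7 (dashed) runs apart.

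Genes that make, move or break down the transmitters and those that act below the receptors were described in 5 lists, and none of their probes passed the adjusted threshold in any comparison. With carbenoxolone at 24 h the list medians were -0.42 for transmitter genes, -0.14 for G protein subunits, -0.08 for effector enzymes, -0.34 for receptor kinases, arrestins and RGS proteins and -1.06 for nicotinic partners, against -0.04 for all probes. Of the 19 transmitter genes, 17 had a probe and 9 were kept. The smallest p with carbenoxolone at 24 h belonged to Slc18a1, a vesicular monoamine transporter (1.06 and 0.397 in TBI+CB pools, against 1.55 and 2.21 in TBI pools), and Slc6a2, the noradrenaline transporter (1.41 and 0.967, against 2.53 and 2.63). At 4 h Maob, which degrades monoamines, had 0.292 and 0.853 in TBI+MT pools and 0.394 and 0.783 in TBI+CB pools, against 1.11 and 2.11 in TBI pools (adjusted p = 0.736 for TBI+MT and 0.957 for TBI+CB). Ddc, which makes dopamine and serotonin, had 3.56 and 0.452 in 4 h TBI pools and 5.34 and 5.72 in 4 h sham pools (log2 fold change -2.13, adjusted p = 0.936). Dbh, which makes noradrenaline, had 3.56 and 2.21 in 24 h TBI+MT pools and 5.01 and 5.14 in 24 h TBI pools.

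Below the receptors, 7 of 9 G protein subunit genes and 9 of 13 effector enzyme genes were kept. Gna11, a subunit that activates phospholipase C, had 1.80 and 1.71 in 24 h TBI+CB pools, against 4.02 and 3.80 in 24 h TBI pools (log2 fold change -1.16, adjusted p = 0.592). Adcy4, an adenylyl cyclase, had 6.49 and 5.93 in 24 h TBI pools, with 4 of 4 arrays above background, and 0.378 and 1.04 in 24 h sham pools, with none (adjusted p = 1). In 24 h TBI+MT against 24 h TBI, 0 of the 9 effector probes were higher, as were 26% of all probes, the median was -0.63, and Adcy5 was the one with an unadjusted p under 0.05 (6.78 and 12.4 in TBI+MT pools, against 16.4 and 32.2 in TBI pools). All probes had a median of -0.39 in that comparison.

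Of the 14 receptor kinase, arrestin and RGS genes, 11 were kept. Rgs2, which limits signaling by phospholipase C-coupled receptors, had 92.3 and 175 in 4 h TBI pools, against 23.0 and 30.7 in 4 h sham pools (log2 fold change 2.26, adjusted p = 0.936). Rgs4, of the same family, had 18.9 and 13.6 in 24 h TBI pools, against 3.45 and 6.5 in 24 h sham pools (log2 fold change 1.76, adjusted p = 1). Arrb1, which uncouples activated receptors from G proteins, had 0.875 and 0.545 in 24 h TBI+MT pools and 0.613 and 0.934 in 24 h TBI+CB pools, against 1.49 and 5.02 in 24 h TBI pools. Grk3, a receptor kinase, had 5.85 and 1.61 in 4 h TBI+MT pools, against 0.654 and 0.159 in 4 h TBI pools (adjusted p = 0.736).

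Of the 7 nicotinic partner genes, 4 were kept. Tmem35a, which helps assemble the Chrna7 channel, had 0.831 and 4.30 in 4 h TBI+MT pools, 2.34 and 2.89 in 4 h TBI+CB pools, 6.51 and 5.59 in 4 h TBI pools and 2.91 and 2.54 in 4 h sham pools. Musk and Rapsn, which organise the muscle receptor, were lower in 24 h TBI+CB pools than in 24 h TBI pools, with 1.70 and 1.33 against 2.84 and 3.22 for Musk and 5.35 and 6.19 against 10.9 and 14.2 for Rapsn (adjusted p = 0.592 for each).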

How the data were processed

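CodeLink rat arrays (1 colour) measured 16 pooled RNA samples after 2 rounds of amplification. Per the file headers, the deposited values are background-subtracted spot intensity from the scanner software, with a quality flag and the array median. The deposited value table, normalized by the authors, served as an alternative. For each array, raw intensity over the array median was floored at 0.1 before log2. Spots marked irregular or masked were dropped, and log2 values of duplicate arrays were averaged (median r = 0.975 between duplicates, 0.873 between pools of a group). The filter described with the results left 17635 probes. limma 3.58.1 in R 4.3.3 fitted the 8 groups together (8 residual and 3.88 prior degrees of freedom), with Benjamini-Hochberg adjustment over all probes kept within each comparison and a threshold of 0.05. The script was tested on simulated data. The number of arrays limits the precision.

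A probe near background on every array of 1 group is given as a bound: the brighter group's mean over the higher of the dim probe's own signal and the lowest signal called above background on each array. Named were all receptor genes with a kept probe, the 3 with the smallest p in each comparison, the genes above background on the fewest arrays, and, from the further lists, genes among the 2 with the smallest p of their list in a comparison. The members and lists were chosen with earlier results of these data known. Symbols come from the platform table, brought up to date through RefSeq (GRCr8), which also gave the promoters. Probe sequences were not used here. Pools were not treated as pairs, since the deviations of same-numbered pools correlated between -0.13 and 0.29. Alternatives changed the scaling, floor, filter, arrays, samples and terms of the fit.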

Additional observations from a re-analysis of the deposited data

Results flagged for a closer look

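In 3 of the 66 combinations of 22 receptor probes and 3 comparisons, both pools of a group lay on one side of both pools of the other at 4 h and on the opposite side at 24 h. Over all probes kept, 6.86% of such combinations did so (3.91% for TBI against sham and 12.4% for TBI+CB against TBI), so 3 of 66 is not above that share. Chrm2, which was kept only through its 4 h TBI arrays, was higher in TBI than in sham at 4 h (0.977 and 1.03, against 0.143 and 0.270) and lower at 24 h (0.265 and 0.460, against 0.645 and 0.618), and the difference between the times was -3.20 on the log2 scale (limma, adjusted p = 1). The second Adra1d probe was higher in TBI+CB than in TBI at 4 h (2.70 and 2.28, against 1.22 and 2.25) and lower at 24 h (1.44 and 1.16, against 4.26 and 3.90), a difference of -2.24 (adjusted p = 0.574). Chrnb2 was higher in TBI+CB than in TBI at 4 h (4.46 and 3.25, against 2.39 and 3.04) and lower at 24 h (2.12 and 1.87, against 4.88 and 4.59), a difference of -1.74 (adjusted p = 0.574). None passed the adjusted threshold, and the 24 h TBI+CB pools lie in a slide range with the 24 h TBI+MT pools and apart from the TBI pools. With 2 pools a group, no test for a single outlying sample was possible.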

How the results depend on the processing

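No receptor probe was called in any of the 6 comparisons under any alternative (0 throughout), including each pool left out in turn (lowest 0, highest 0). The differences between times were also fitted after quantile normalization, on the processed values of the authors and with the replicate block, and the test over the 8 groups after quantile normalization, on those processed values and with no filter, with 0 calls in each. Over all probes the count of calls was between 0 and 49, the highest for TBI+MT against TBI at 4 h without TBI pool 1 or with slide range as a block, and 47 for TBI against sham at 4 h without TBI pool 1. It reached 15 for TBI+CB against TBI at 24 h without TBI+CB pool 1, and at most 2 in the other comparisons. Slide range could not be fitted as a block for the 24 h drug comparisons, since each range there holds 1 side. At 4 h only the TBI group spans 2 ranges, so the block is no separate alternative there. It gave the same values as leaving out TBI pool 1 in the drug comparisons and TBI pool 2 in TBI against sham. With the replicate block 0 receptor probes were called, and crossing the pairing in TBI+CB against TBI and TBI against sham at 24 h also gave 0. Of 310 values of the 18 named results under alternatives, 309 kept their direction and side of the threshold. The exception was Chrm2 in TBI against sham at 24 h, 0.0363 on the log2 scale on array b alone, and the cause was not tested. Taking a level above the array median in place of the background flag kept 21 receptor probes in place of 22. Scaling by the probes above background on all arrays, chosen after seeing the data, put 18 receptor probes higher and 4 lower in TBI+MT against TBI at 4 h and 8 higher and 14 lower in TBI against sham at 4 h. With no filter 20 of 63 receptor probes were over 2-fold lower in TBI+CB than in TBI at 24 h (15.1% of all probes), in place of 11 of 22. With only probes whose 4 arrays in each group lie within 2-fold, 6 of 11 were (21.7%), and 0 receptor probes in the other comparisons. With 2 pools a group, and most receptor probes near background, only large differences could be detected.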
